A study of Mus musculus with 6 samples.

Results

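Mouse chromosome 18 was followed in NIH3T3 fibroblasts through 1736 regions of open chromatin, of 51253 regions tested over the genome. The members are the regions of chromosome 18 whose mean over all 6 ATAC-seq libraries was at least 10 normalised reads, and 1736 of the 1802 regions that the table lists there met this minimum. The 3 libraries of the active group came from cells with the active T3H48-HHR, a self-cleaving hammerhead ribozyme, knocked into intron 3 of Actg1, and the 3 libraries of the inactive group from cells with the inactive T3H48-HHR at the same place. Both groups thus carry an insertion in Actg1, the cytoplasmic gamma-actin gene, which lies on another chromosome, and no cells without an insertion were analysed here. NIH3T3 is an immortal line with an abnormal and varying chromosome number, and no label tells if replicate libraries are separate clones or cultures, so their spread may be technical. Ribozyme activity and the identity of the lines cannot be told apart.

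ATAC-seq cuts and tags DNA where the transposase Tn5 can reach it, so reads gather over promoters and enhancers that are free of nucleosomes. A read total over a region depends on how open each DNA copy is and on how many copies the cells hold. Copies of chromosome 18 were not measured, and the number of copies and the openness of each cannot be told apart in these values. Mouse chromosome 18 carries genes that fibroblasts use in growth factor, TGF-beta and Wnt signalling, in the actin and microtubule skeleton and in the matrix, beside clusters of desmosomal cadherins and protocadherins that are mostly silent in fibroblasts.

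The chromosome was chosen because its regions were lower in the active line. The comparison of active with inactive libraries is therefore given here as a description, with fold changes, their standard errors (SE) and calls, and no p-value is printed for it. A call means an adjusted p under 0.05 in a limma fit over all 51253 regions of the genome, and rose, fell, higher and lower are used in that sense for single regions. Log2 fold changes are active against inactive on the scale of log2(normalised reads + 1), which understates the change of low regions. A promoter is a region whose centre lies within 1000 bp of an annotated transcription start site. All positions are on chromosome 18 of mm39.

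Unscaled depth, meaning reads in the listed regions, was about 3710000 to 6840000 per active library and 7330000 to 8960000 per inactive library, by estimate. By that estimate every active library was shallower. Promoter regions were present for 7 of 9 fibroblast marker genes, among them Vim and Col1a1, at means of 32 to 827 normalised reads, with sums of 2068 to 2210 in active libraries and 2689 to 2795 in inactive ones. Of the other markers looked for, only Krt8 of 5 epithelial genes (134 to 171 active, 78 to 89 inactive) and Nes of 3 neural genes had one, and none of 4 blood or 3 skeletal muscle genes had one. The part of these marker differences in the results was not tested. Over the chromosome 18 regions, Pearson correlations were 0.964 to 0.972 among active, 0.983 to 0.984 among inactive and 0.796 to 0.818 between active and inactive libraries.

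Normalised reads over chromosome 18 were lower as a whole in the active line. Its regions summed to 181395, 186594 and 184236 normalised reads in the active libraries, against 231354, 231551 and 232292 in the inactive libraries. The groups did not overlap, with means of 184075 ± 2603 in active libraries and 231732 ± 495 in inactive ones (SD, n = 3 each). The log2 ratio of these means was -0.33. The chromosome held 2.81%, 2.86% and 2.85% of all normalised reads in the active libraries, against 3.61%, 3.58% and 3.57% in the inactive libraries. The median region stood at -0.38, -0.34 and -0.36 on the log2 scale in active replicates 1, 2 and 3, relative to the inactive mean of the same region. Among the active libraries the shallowest, replicate 2, had the median nearest to 0, but these 3 medians lay close together. The part of depth in them was not tested. In the inactive libraries the median region stood at 0.01, 0.00 and -0.00.

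Of the 1736 regions, 921 (53.1%) fell, 322 (18.5%) rose and 493 were not called. Over all tested regions 29.2% were called lower and 30.9% were called higher. In 931 chromosome 18 regions every active library lay below every inactive one, and in 334 every active library lay above, where the same shares over all tested regions were 30.5% and 31.8%. Falls of at least 2-fold numbered 238 and rises of at least 2-fold numbered 173, beside backgrounds of 6.86% and 13.4% of all tested regions. The median log2 fold change of the members was -0.38, a ratio of 0.77, with the middle 50% between -0.71 and 0.14, beside a median of -0.02 over all tested regions. Of the 66 regions left out by the minimum, 2 were promoters. A member just inside the minimum, at 7155813 to 7156037, had 2, 11 and 8 active and 14, 15 and 11 inactive normalised reads, and a region just outside it, at 4345144 to 4345321, had 0, 4 and 2 active and 14, 19 and 20 inactive.

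**Figure D1:**
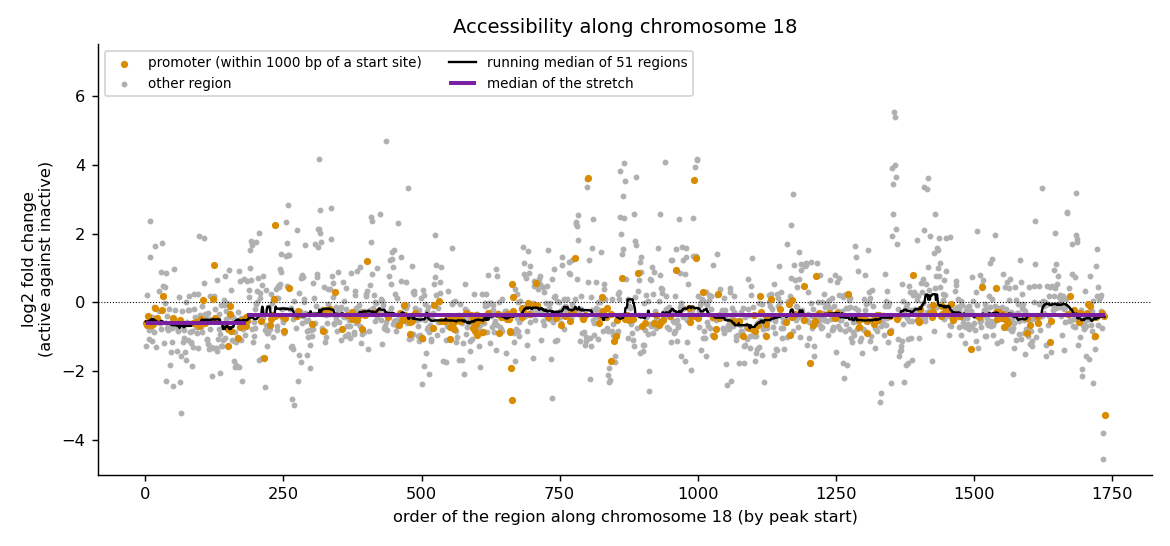
Log2 fold change, active against inactive, of each of the 1736 regions in their order along chromosome 18, with promoters in orange, a running median of 51 regions in black and the medians of the 2 stretches described in the text (-0.61 and -0.35) in purple. Most promoters lie in a band below 0, while other regions, which mostly have lower levels, scatter more widely to both sides.

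Promoters as a whole moved within a narrower range than other regions. Their median level was also higher, at 250 normalised reads against 48.8. Of 287 promoters on the chromosome, 228 (79.4%) fell and 16 (5.57%) rose, and of 1449 other regions 693 (47.8%) fell and 306 (21.1%) rose. Over the whole genome 36.6% of promoters were called lower and 22.4% were called higher, and of other regions 27.1% and 33.2%. The median log2 fold change was -0.43 for promoters and -0.33 for other regions, where over all tested regions it was -0.10 for promoters and 0.02 for other regions. Promoters thus also had the lower median over the whole genome. The middle 50% of promoters lay between -0.58 and -0.30, and that of other regions between -0.75 and 0.23. Per library, the promoter median was lower than that of other regions by 0.13, 0.09 and 0.13 in active replicates 1 to 3, and the same difference was -0.01, -0.03 and 0.03 in the inactive libraries. The difference of -0.10 between both medians shrank to -0.01 with quantile normalization. Calls of 2-fold or more made up 27% of other regions and 6.97% of promoters, near the shares over the whole genome of 23.9% and 6.91%.

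The level of a region went with how tightly it followed the common fall. Among promoters in the quartile of regions with the highest mean level, 184 of 197 fell and 3 rose, with the middle 50% between -0.55 and -0.35. Other regions of that quartile fell in 173 of 237 cases and rose in 21, with a median of -0.39. Below it, promoters scattered about as widely as other regions. In quartile 3 the middle 50% ran from -0.89 to -0.01 for 44 promoters and from -0.73 to 0.12 for 389 other regions. In quartiles 1 and 2 together it ran from -0.86 to 0.43 for 46 promoters and from -0.85 to 0.55 for 823 other regions. In the lowest quartile 141 of 434 regions fell and 106 rose, and the middle 50% ran from -0.88 to 0.64. Counting error is larger at these levels, most of all in the shallower active libraries, and its part in the wider scatter was not tested. Protein-coding promoters fell in 202 of 239 cases, promoters of long noncoding RNA genes in 17 of 28 and promoters of other gene types, mostly pseudogenes, in 9 of 20. The median level of these 3 kinds in the inactive libraries was 335, 134 and 44.5 normalised reads.

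**Figure D2:**
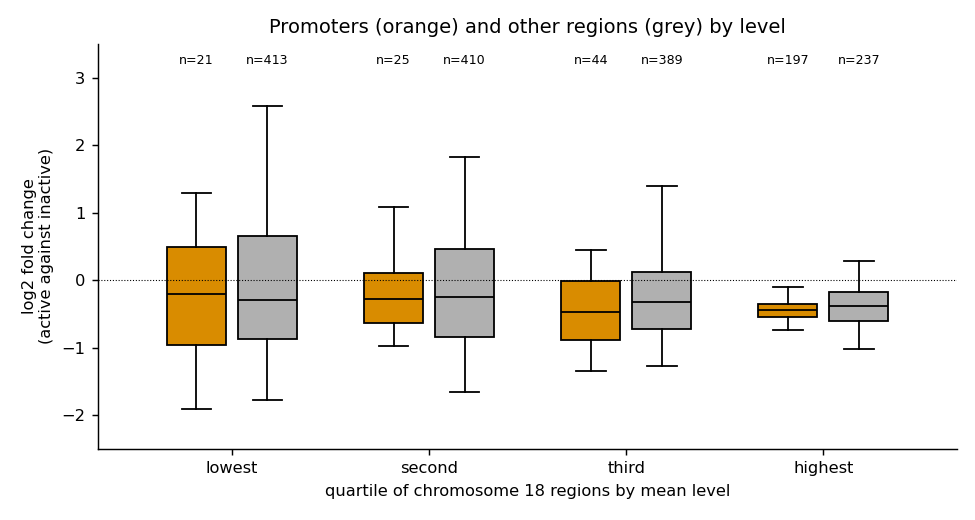
Log2 fold change, active against inactive, of promoters (orange, left) and other regions (grey, right) in each quartile of chromosome 18 regions by mean level. Boxes span the middle 50%, the line is the median and whiskers reach the 5th and 95th percentiles. In the highest quartile the promoter box runs from -0.55 to -0.35.

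The 3 most accessible promoters of the chromosome all fell. Egr1, an immediate-early zinc finger factor switched on by growth factors, had 1471, 1474 and 1462 normalised reads in active cells, against 1901, 1914 and 2001 in inactive cells (34992839 to 34994690, log2 fold change -0.40 ± 0.04 SE). Mex3c, an RNA-binding ubiquitin ligase, had 1174, 1043 and 1120 active and 1409, 1334 and 1363 inactive (log2 fold change -0.30 ± 0.04 SE). Garem1, an adaptor of growth factor receptor signalling, had 1023, 1097 and 1159 active and 1230, 1249 and 1267 inactive (-0.19 ± 0.04 SE). In these 3 the groups did not overlap. Of the 49 promoters with a mean of at least 500 normalised reads, 48 fell and 0 rose, with log2 fold changes from -0.62 to -0.11 and a median of -0.39. The promoter at -0.11 was that of Cndp2, a dipeptidase, with 561, 677 and 588 active and 673, 611 and 680 inactive, which overlap.

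Along the chromosome the fall was present nearly throughout but not even. In consecutive windows of 5 Mb, 16 of 18 window medians were below 0. In the same 16 windows every active library lay below every inactive one. The medians of single inactive libraries stayed between -0.06 and 0.05 over all windows, and the 3 active libraries of a window lay within 0.21 of each other. The lowest window, from 5 to 10 Mb, had a median of -0.67, with active replicates 1 to 3 at -0.65, -0.57 and -0.66, and 98 of its 137 regions fell. From 70 to 75 Mb, a window that holds Mbd2, Mex3c and Smad4, the median was 0.07, with active libraries at 0.02, 0.05 and 0.16 and inactive libraries at 0.03, -0.04 and 0.01. There 26 of 71 regions rose and 21 fell. Its 12 promoters had a median of -0.29 while its other regions had one of 0.23. The window from 85 to 90 Mb, with 14 regions, had a median of 0.12, though 6 of its regions fell and 3 rose. Its active libraries were at 0.05, -0.01 and 0.01 and its inactive libraries at 0.05, 0.02 and -0.06, which overlap.

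Promoter medians varied less along the chromosome than those of other regions. In all 18 windows the promoter median was below 0. In the 14 windows with at least 10 promoters it lay between -0.54 and -0.29, while the median of other regions in these windows ran from -0.70 to 0.23. The fold changes in order of position were also split into stretches of at least 50 regions, which gave 1 border, between 10707091, inside Abhd3, and 10718616, before Mib1. The 183 regions from 3280744 to the border had a median of -0.61, and 129 of them fell and 20 rose. The 1553 regions past it had a median of -0.35, and 792 fell and 302 rose. In the first stretch the active libraries stood at -0.55, -0.56 and -0.60, and past the border at -0.35, -0.31 and -0.33. Both stretches differed less at promoters (-0.52 and -0.42) than at other regions (-0.67 and -0.30).

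**Figure D3:**
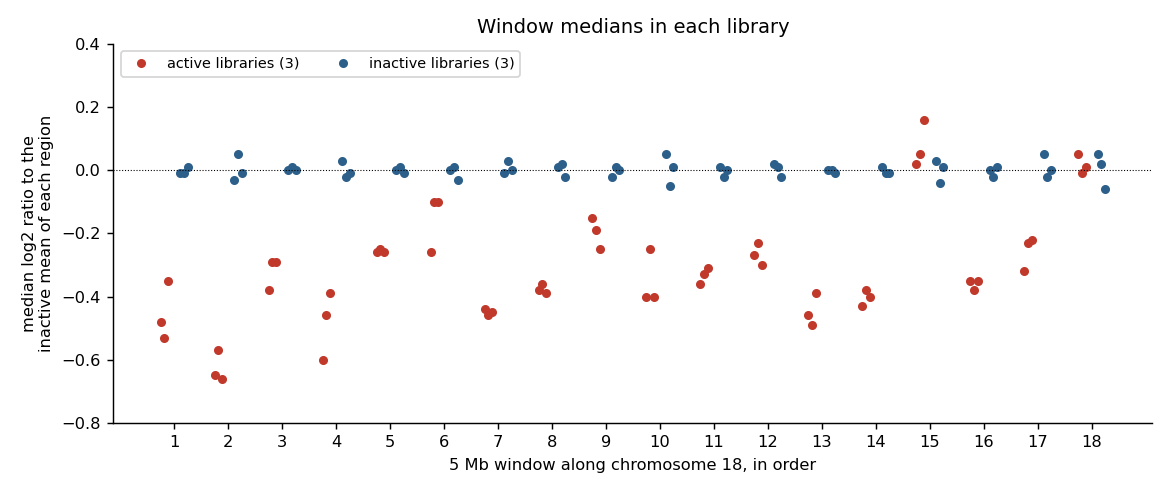
Median log2 ratio of each library to the inactive mean of each region, in 18 consecutive 5 Mb windows of chromosome 18, with active libraries (red, left) and inactive libraries (blue, right) as points. Active libraries lie below the inactive ones in 16 windows, and not in window 15 (70 to 75 Mb) and window 18.

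Genes of the chromosome were grouped into 10 lists by role, and the region nearest the start site stood for each gene. The list medians lay between -0.55 and -0.20, beside -0.38 over the members and -0.02 over all tested regions. The counts of the lists are read beside the 79.4% of all promoters of the chromosome that fell and the 84.5% of protein-coding ones. Not every listed region is a promoter, and of the chromosome's other regions only 47.8% fell. Promoters made up 5 of 9 regions in the growth factor list, 8 of 12 among transcription factors and 4 of 8 among innate immunity genes. No list is shown to differ from these shares. Some genes near that common fall turn sign when each library is centred on the chromosome's own median, which moves the median of all tested regions to 0.34, and these are named with their lists. All 5 genes of TGF-beta and BMP signalling with a region fell, between -0.42 and -0.29 on the log2 scale, Smad2 turning sign under centring. Smad4, the shared mediator of the pathway, had 344, 383 and 382 active and 520, 494 and 472 inactive normalised reads at its promoter (log2 fold change -0.42 ± 0.06 SE). The receptor-regulated Smad2, the inhibitory Smad7, the decoy receptor Bambi and Ldlrad4, an inhibitor of Smad activation, stood at -0.29, -0.39, -0.38 and -0.36. These 5 promoters thus lay close to the chromosome's median of -0.38.

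All 6 genes of the Wnt list fell, of which Csnk1a1 and Ctnna1 turn sign under centring. Fzd8, a Wnt receptor, had 271, 279 and 273 active and 436, 491 and 482 inactive normalised reads (9211831 to 9213805, log2 fold change -0.77 ± 0.07 SE). A region 1076 bp from the start of Cxxc5, a zinc finger protein that restrains Wnt signalling, had 51, 69 and 55 active and 144, 126 and 152 inactive (log2 fold change -1.26 ± 0.13 SE). Apc, a scaffold of the complex that degrades beta-catenin, was at -0.55, and the kinases Csnk1a1 and Csnk1g3 were at -0.28 and -0.50. All 14 housekeeping genes with a region fell as well, none turning sign under centring, between -0.83 (Paip2, which binds poly(A)-binding protein) and -0.37 (Seh1l, a nuclear pore protein). Rps14, a protein of the small ribosomal subunit, had 125, 122 and 118 active and 190, 208 and 194 inactive normalised reads 1376 bp from its start.

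Genes of the skeleton and of chromatin regulation fell about as often as the chromosome's promoters did. Of 15 skeleton genes, 13 fell and 0 rose, of which Bin1 and Katnal2 turn sign under centring. Rock1, a kinase that drives actomyosin contraction, had 532, 511 and 517 active and 735, 731 and 752 inactive normalised reads (log2 fold change -0.51 ± 0.05 SE). Diaph1, a formin that elongates actin filaments, was at -0.42, Tubb6, a beta-tubulin, at -0.52 and Lmnb1, the lamin of the nuclear envelope, at -0.39. Svil, an actin-bundling protein, at -0.21, and Ablim3, an actin-binding LIM protein, at 0.09, were not called. Of 9 chromatin regulators 7 fell and 0 rose, from Setbp1 at -0.89 to Mbd2, a reader of methylated DNA, at -0.20, with Mbd2, Sap130 and Cxxc1 turning sign under centring. The histone deacetylase gene Hdac3 (325, 346 and 348 active, 361, 366 and 401 inactive) and Mbd1 were not called.

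Matrix and growth factor genes were mixed. Lox, the enzyme that crosslinks collagen and elastin, had 353, 315 and 351 active and 525, 494 and 518 inactive normalised reads at its promoter (52661536 to 52663430, log2 fold change -0.59 ± 0.06 SE). Colec12, a scavenger receptor, was at -0.82 and Ndst1, a heparan sulfate enzyme, at -0.55, while Megf10, a receptor for engulfment, rose, so that 3 of 5 genes of the matrix list fell and 1 rose. Pdgfrb, the receptor of platelet-derived growth factor on mesenchymal cells, had 213, 189 and 157 active and 298, 305 and 333 inactive normalised reads (61177858 to 61178625, log2 fold change -0.75 ± 0.09 SE). Of 9 growth factor, hormone and guidance genes 5 fell and 2 rose, with Hbegf among those turning sign under centring. The risers were Sema6a, a membrane semaphorin, and a region 4950 bp from Csf1r, the receptor of macrophage colony-stimulating factor. Spry4, an inhibitor of growth factor signalling, was not called, at 184, 178 and 174 active and 200, 179 and 182 inactive.

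Among 12 transcription factor genes 9 fell and 1 rose. Zeb1, a repressor of epithelial genes, had 164, 189 and 184 active and 250, 253 and 270 inactive normalised reads (log2 fold change -0.52 ± 0.08 SE), and Tcf4, a basic helix-loop-helix factor, had 262, 276 and 278 active and 378, 379 and 389 inactive (-0.49 ± 0.07 SE). Onecut2, a homeobox factor of liver and nerve cells, was at 22, 18 and 14 active and 69, 56 and 61 inactive (-1.75 ± 0.21 SE). Zbtb7c, a zinc finger repressor, rose (0.44 ± 0.13 SE). Of 8 innate immunity and blood cell genes 6 fell and 1 rose, with Cd14 and Malt1 turning sign under centring. Cd14, the endotoxin co-receptor, was at -0.34, and a low region 1261 bp from Cd74, the invariant chain of antigen presentation, had 6, 2 and 9 active and 20, 14 and 25 inactive.

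**Figure D4:**
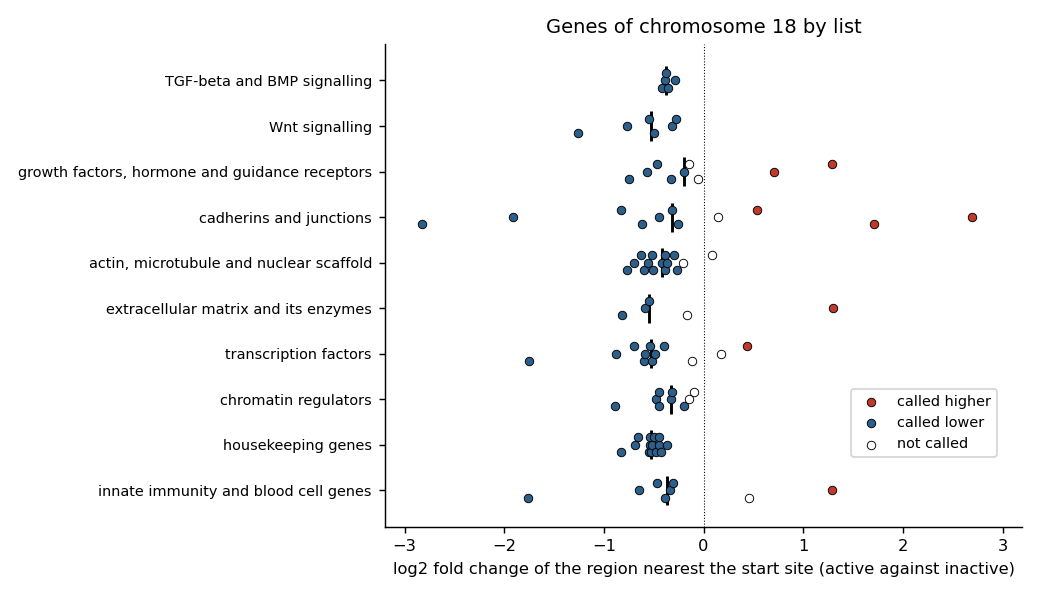
Log2 fold change, active against inactive, of the region nearest the start site for each gene in 10 lists of chromosome 18 genes. Points are genes, filled blue where called lower, red where called higher and white where not called, and the bar is the list's median. List medians lie between -0.55 and -0.20, and the widest list is that of cadherins and junctions (-2.82 to 2.69).

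Cadherin genes were the most spread of the lists, with 7 of 11 lower and 3 higher, and Ctnna1 and Pcdhgc3 turning sign under centring. Cdh2, the N-cadherin of fibroblast junctions, fell at its promoter, with 295, 359 and 313 active and 515, 477 and 492 inactive normalised reads (16940906 to 16942790, log2 fold change -0.62 ± 0.07 SE). For the desmosomal cadherins Dsg2 and Dsc3 the region nearest the start rose, and in neither was it a promoter. The region 3606 bp from the start of Dsg2 had 173, 193 and 168 active and 25, 32 and 24 inactive (20687185 to 20687865, log2 fold change 2.69 ± 0.15 SE), and that 4407 bp from Dsc3 had 39, 23 and 33 active and 11, 5 and 12 inactive. Both genes hold cells together in epithelia. In a run of 15 neighbouring regions that holds both, from 19765016 to 20705663, 10 rose, 3 fell and 2 were not called. Within it, from 20274832 to 20705663, all of 9 neighbouring regions rose, the Dsg2 region among them. Their sum was 665, 640 and 638 active and 180, 193 and 159 inactive normalised reads, 3.65-fold.

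The clustered protocadherins, neuronal cell surface proteins many of whose promoters are chosen at random in single cells, differed from promoter to promoter. Of 6 regions of the cluster, 4 fell, 1 rose and 1 was not called. Pcdhga1 had 2, 7 and 4 active and 42, 29 and 32 inactive normalised reads (37794696 to 37795023, log2 fold change -2.82 ± 0.36 SE), and Pcdhb21 had 11, 5 and 5 active and 32, 32 and 20 inactive (-1.91 ± 0.34 SE). Pcdhgb8 rose, with 69, 67 and 49 active and 42, 46 and 37 inactive (0.54 ± 0.17 SE). Pcdhgc3, the most accessible of the cluster, was at 295, 327 and 308 active and 390, 373 and 348 inactive (-0.26 ± 0.07 SE), and Pcdhgc5 was not called (0.15). Genes of this family are close copies of each other, so reads may have been split or lost between them.

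Larger falls than the common one were found at single promoters and at regions farther from genes. Among regions at or above the members' median level with a named gene, Gm45871 at the far end of the chromosome (90597570 to 90598168) fell the most, with 10, 16 and 10 active and 119, 124 and 119 inactive normalised reads (log2 fold change -3.26 ± 0.20 SE). The neighbouring promoter of Tmx3, a thiol oxidoreductase, was at 298, 332 and 310 active and 441, 374 and 427 inactive, near the common fall. Before both, and chosen after its values were seen, a low region at 89453527 to 89454005 had 1, 0 and 6 active and 60, 56 and 51 inactive. Cdo1, the enzyme that breaks down cysteine, fell at its promoter to 57, 58 and 59 in active cells, against 182, 182 and 213 in inactive cells (46860853 to 46861920, log2 fold change -1.71 ± 0.12 SE). Cables1, a partner of cyclin-dependent kinases, fell at its promoter, with 38, 30 and 44 active and 115, 104 and 130 inactive (log2 fold change -1.62 ± 0.15 SE).

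Farther from a start site, Camk2a, a calmodulin-dependent kinase of neurons, fell in both of its regions, with 35, 34 and 31 active and 111, 111 and 122 inactive in the one with more reads. Slc14a1, a urea transporter, fell 2788 bp from its start to 153, 131 and 163 in active cells, against 370, 372 and 376 in inactive cells (log2 fold change -1.32 ± 0.08 SE). Arl14epl, Gm10532, Cxxc5, 2700062C07Rik, Map3k8, Gypc and Zadh2 complete the 12 lowest, from -1.72 to -1.01. In all 12 the groups did not overlap, which follows largely from picking called regions by fold change.

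Among regions without an annotated gene, the lowest at or above the median level lay inside Zfp521, a zinc finger regulator of progenitor cells, at 14027981 to 14028595, with 25, 14 and 21 active and 132, 141 and 149 inactive normalised reads (log2 fold change -2.79 ± 0.17 SE). A region 69 kb from Lox, toward 1700034E13Rik, had 12, 16 and 21 active and 90, 91 and 120 inactive (52731967 to 52732266, -2.57 ± 0.20 SE), a larger fall than at the Lox promoter. Between Csnk1a1 and Il17b, the region at 61772659 to 61773090 had 30, 41 and 37 active and 164, 193 and 190 inactive (-2.32 ± 0.14 SE). A region inside Tcf4 at 69747031 to 69747998 had 35, 51 and 41 active and 227, 206 and 199 inactive, and one 36.3 kb from Cdo1 at 46808392 to 46809912 had 46, 53 and 55 active and 268, 261 and 240 inactive.

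The 322 regions that rose against the common fall were mostly low and, like most members, away from promoters. Of these, 262 had no annotated gene, 44 lay over 1000 bp from the start of an annotated gene and 16 were promoters. Among all 1736 members, 1205, 244 and 287 were of these kinds. The rising regions had a median level of 55 normalised reads for active libraries and 22.3 for inactive ones. For 69 of them the inactive mean was under 10, so they met the minimum only through their active libraries. The regions that fell had medians of 68.7 active and 120 inactive, and 59 had an active mean under 10. In 309 of the 322 every active library lay above every inactive one, which follows largely from the call on the same libraries.

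Among named genes at or above the median level, 9 rose and filled fewer than the 12 places of the rule. Marchf3, a membrane-bound ubiquitin ligase, had 245, 269 and 265 active and 24, 19 and 21 inactive normalised reads at its promoter (log2 fold change 3.55 ± 0.14 SE). It stood in a group: of the 6 regions from 57058330 to 57301302, 5 rose and 1 was not called. The promoter of Megf10 in that group had 21, 44 and 32 active and 12, 12 and 12 inactive, and a region inside Megf10 at 57300509 to 57301302 had 221, 207 and 196 active and 14, 12 and 7 inactive (log2 fold change 4.17 ± 0.19 SE). The promoter of C330018D20Rik, between Marchf3 and Megf10, had 21, 34 and 22 active and 29, 39 and 33 inactive, which overlap.

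Rises without an annotated gene were as large. A region 116 kb before Tshz1, a zinc finger homeobox factor whose region 2150 bp from the start fell (-0.54), had 217, 251 and 226 active and 30, 25 and 20 inactive normalised reads (83913281 to 83913801, log2 fold change 3.18 ± 0.14 SE). One at 25637937 to 25638581, 37.6 kb past AW554918, had 144, 99 and 119 active and 15, 18 and 26 inactive (log2 fold change 2.58 ± 0.18 SE). Neither pair of groups overlapped, in regions likewise picked by fold change.

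Smim3, a small membrane protein gene, rose at its promoter (298, 272 and 286 active, 238, 242 and 236 inactive, log2 fold change 0.26 ± 0.08 SE) and 1906 bp from its start (103, 85 and 123 active, 33, 38 and 44 inactive, 1.41 ± 0.16 SE). The promoter of Sema6a had 132, 152 and 157 active and 109, 92 and 71 inactive (0.71 ± 0.13 SE), and that of Gm9955 had 91, 99 and 99 active and 48, 34 and 43 inactive. Promoters just under the median level, chosen after their values were seen, included Jakmip2, a microtubule-linked protein of neurons, at 96, 106 and 88 active and 6, 7 and 8 inactive (log2 fold change 3.61 ± 0.22 SE), and Ankrd29 at 53, 87 and 81 active and 15, 11 and 18 inactive.

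**Figure D5:**
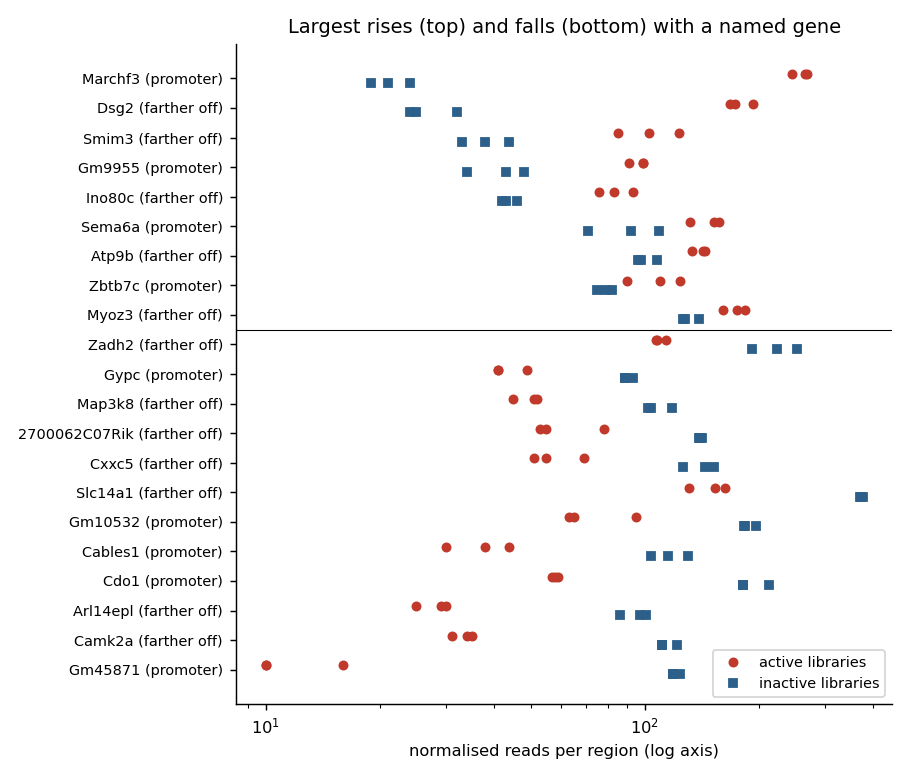
Normalised reads per region (log axis) in the 3 active libraries (red circles, upper of each pair) and the 3 inactive libraries (blue squares) for the 9 regions with a named gene that rose the most (above the line) and the 12 that fell the most (below it), among regions at or above the median level. In each of these regions the groups do not overlap, which follows largely from picking called regions by fold change.

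Some genes held regions that went opposite ways. Of 88 genes with 2 or more regions, 9 had 1 called lower and another called higher, and in 5 of these the promoter fell while a region farther off rose. On the chromosome as a whole 79.4% of promoters fell and 21.1% of other regions rose. No share over the whole genome stands beside these gene counts, so they describe this chromosome only. At Ino80c, a subunit of a nucleosome remodeller, the promoter fell (log2 fold change -0.50) while a region 5010 bp from the start rose, with 93, 83 and 76 active and 43, 42 and 46 inactive normalised reads (0.92 ± 0.15 SE). At Atp9b, a phospholipid flippase gene, the promoter was at -0.53 and a region 4038 bp off at 0.47. At Lars, a leucyl-tRNA synthetase gene, the promoter was at -0.53 and a region 4940 bp off at 0.83.

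Some rising regions stood in local groups beside falling ones. Of the 322, 111 stood in unbroken rows of 3 or more neighbours called higher and 137 had no neighbour called higher. Over all tested regions 30.9% were called higher, but rows were not counted there. Such grouping is therefore not shown to be particular to this chromosome. In runs of 15 neighbouring regions, the highest running median was 2.14, from 68377316 to 69301727, where 9 rose and 4 fell. The rising regions there belong to an unbroken row of 10 from 68573428 to 69303494, chosen after its values were seen, between the named genes Mc5r and Tcf4. Some regions of the row were annotated to long noncoding RNA or rRNA genes without a symbol. The row summed to 768, 656 and 673 active and 80, 78 and 83 inactive normalised reads, 8.7-fold. Its member with the highest log2 fold change, at 68890740 to 68891274, had 155, 145 and 134 active and 3, 1 and 3 inactive (log2 fold change 5.52 ± 0.27 SE, a size that rests on the added 1). On one side of the row the promoters of Fam210a (431, 470 and 442 active, 613, 578 and 565 inactive) and Mc5r, a melanocortin receptor (52, 51 and 47 active, 95, 103 and 78 inactive), fell. On the other side, from 69479208 to 69800570 along Tcf4, 10 of 15 regions fell and 1 rose.

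Another such pair lay around Commd10. From 46777411 to 47067639, a run that holds Cdo1, Ap3s1 and Arl14epl, 14 of 15 regions fell and 0 rose, with a sum of 1054, 1178 and 1098 active and 2170, 2003 and 2125 inactive normalised reads and a median log2 fold change of -1.12, the lowest of any run. The promoter of Commd10 was at 263, 290 and 300 active and 418, 393 and 402 inactive. From 47307939 to 48837521, an unbroken row of 10 that holds both regions of Sema6a rose, with a sum of 702, 750 and 733 active and 223, 195 and 171 inactive, 3.71-fold. Its last member, at 48836883 to 48837521 with no named gene of the table within 992 kb, had 107, 118 and 124 active and 8, 9 and 11 inactive.

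The longest unbroken row of falling regions held 20, from 67743129 to 68200029, with regions of Spire1, Cep76, Ptpn2, Seh1l, Cep192 and Ldlrad4 in it. Its sum was 3213, 3435 and 3436 active and 4759, 4782 and 4870 inactive normalised reads, 1.43-fold lower in the active line. A row of 14 along Colec12, from 9707413 to 9834616, fell farther, with a sum of 632, 703 and 654 active and 1182, 1193 and 1258 inactive and a median log2 fold change of -1.06. Both rows were picked for their length in this comparison and describe it only.

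With each library centred on the median of the chromosome 18 regions, 470 regions were called lower and 521 higher, and falls and rises of at least 2-fold numbered 108 and 251. Centring places the median region near 0 by construction and moves all of these counts with it, so neither pair is a finding. Without centring, 6.86% and 13.4% of all tested regions were called lower and higher by at least 2-fold. Centred in this way, Smad2 (0.07), Cxxc1 (0.03) and Sap130 (0.04) came near 0 and lost their calls, and Spry4 (0.30), Mbd1 (0.26) and Hdac3 (0.22) were called higher. Of the 92 named regions that fell, 49 kept that call under centring, which adds nearly the same amount to every fold change.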

How the data were processed

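ATAC-seq libraries of NIH3T3 cells, 3 active and 3 inactive, were compared through the deposited table of regions. Reads had been handled, per the submitters' processing notes, with DESeq2 1.36.0, featureCounts, Picard 3.1.1, STAR 2.7.11a and Trimmomatic 0.39 on build mm39, in an order not stated; the peak caller is not given in the sources used here. Each deposited value is a score, namely a region's reads scaled by the authors with one size factor per library and then rounded, as read from nearly equal totals (6433944 to 6548535) and from whole numbers below 60 that never occur in active replicates 1 (10 of them) and 2 (26). Reads were not recovered exactly, so no count model was used. Depth was estimated from the pattern of skipped and overfilled whole numbers and covers reads in the listed regions only. Correlations with the fitted pattern ran from 0.841 in active replicate 3 and 0.849 in inactive replicate 3 to 0.986 in active replicate 2. The nearest depths of the groups, 6840000 and 7330000, thus rest on the poorest fits.

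Values were analysed as log2(value + 1) in limma 3.58.1 (R 4.3.3, trend and robust settings, no covariate) over all regions with a mean of at least 10, with Benjamini-Hochberg adjustment over all of them and a threshold of 0.05. The fit was also run on simulated data with few changed regions and no shift of a whole chromosome. That run does not test calls under the shift seen here. Windows, stretches (values held within 1.5 of 0) and runs were computed in Python 3.11.15 (pandas 2.3.3, numpy 2.4.6, matplotlib 3.10.9 for plots). Named regions were the one nearest each listed gene's start, the 12 highest and 12 lowest called regions with a gene symbol and the 5 highest and 5 lowest without a gene, at or above the members' median level, and the 3 most accessible promoters. Members, lists and rules were chosen with earlier results of these data known. Listed genes without a region are not analysed here, and the values of some listed genes are not reported here.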

Additional observations from a re-analysis of the deposited data

How the results depend on the processing

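Counts of chromosome 18 regions called lower and higher kept within 1.5 times the reported 921 and 322 with a pseudocount of 0.5 or 5, no filter, quantile normalization, equal library totals and limma without trend. Without 1 library in turn they ranged from 850 to 896 lower and 294 to 321 higher, with medians of -0.38 to -0.36. With a mean of at least 50 required, 964 regions were left, of which 637 fell and 130 rose, 83 and 48 by at least 2-fold, with a median of -0.40. Fewer regions were tested there. Centring on the chromosome gave 470 lower and 521 higher, and 108 lower by at least 2-fold. The median was -0.35 with a pseudocount of 5 and -0.42 with quantile normalization, which also brought the promoter difference to -0.01; the cause was not tested. In 10 Mb windows the lowest median was -0.61 and the highest -0.22, which reverses the sign of the highest. The replicate block gave 915 lower and 323 higher. Replicate numbers showed no pairing, with correlations of deviations of 0.00137, -0.006 and -0.0162 for same-numbered libraries.

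Of the 111 named regions called, 101 kept call and direction under all 14 settings other than centring, and 10 lost the call in at least 1, among them Mbd2, Mapre2, Bin1, Katnal2, Tslp, Garem1, Smad2, Pcdhgc3 and Pcdhb17. Regions whose sign turned under centring included Garem1 (0.17), Sap130 (0.04), Bin1 (0.06), Ctnna1 (0.04), Hbegf (0.04), Cd14 (0.02), Pcdhgc3 (0.11), Hdac3 (0.22), Spry4 (0.30), Csnk1a1 (0.08), Malt1 (0.05), Mbd2 (0.16), Mex3c (0.06), Cxxc1 (0.03), Mbd1 (0.26), Smad2 (0.07) and Katnal2 (0.09). The lower depth of the active libraries limits what regions of few reads can show.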
